A study of Mus musculus with 14 samples.

Results

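The data compared how macrophages of 2 origins in the mouse peritoneum responded to IL-4. The quantity described is the interaction: the change from thioglycollate alone to thioglycollate with IL-4 complex, minus the change from PBS to IL-4 complex. It draws on 14 of the 14 arrays of the series, 1 array per sample. All cells came from C57BL/6 mice and had been sorted as positive for CD11b and F4/80 after an injection into the peritoneum. The 4 groups were PBS alone (PBS, 3 arrays), IL-4 complex (IL-4c, 5 µg of IL-4 held by 25 µg of the antibody 11B11, 4 arrays), 2 ml of 4% thioglycollate medium (Thio, 3 arrays) and both agents (Thio+IL-4c, 4 arrays). The labels describe the PBS cells as resident and the IL-4c cells as proliferating tissue macrophages. They describe the Thio cells as monocytes and the Thio+IL-4c cells as derived from inflammatory monocytes. PBS and IL-4c cells are called resident below and the other groups elicited. The labels used here do not say whether the arrays of a group came from separate mice, so the spread behind each p-value is that of these samples and may be technical.

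IL-4 binds a receptor built on the IL-4 receptor alpha chain and activates the transcription factor STAT6. In macrophages this drives alternative activation, a state known for arginase 1, the chitinase-like proteins Ym1 and Ym2, the secreted protein RELM alpha and the mannose receptor, and IL-4 delivered as a complex also makes resident macrophages divide. Resident peritoneal macrophages maintain themselves locally and depend on the transcription factor GATA6. Thioglycollate, an irritant broth, draws in blood monocytes that carry the chemokine receptor CCR2 and become macrophages on site.

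Levels are log2 values in which 0 is the 75th percentile of the array. Calls were made in limma over 20343 genes, at an adjusted p (Benjamini-Hochberg) under 0.05. Differences are in log2 units, SE is their standard error in the fit, and a positive interaction means that the IL-4c effect was higher in elicited cells. The terms rose and fell are used only of called changes.

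The sort markers and the origin marker were as labelled. Itgam, which encodes CD11b, was between 4.05 and 6.10 on the 14 arrays. Adgre1, which encodes F4/80, was between 3.44 and 6.61. Gata6 was between 2.93 and 3.31 on the 7 resident arrays and between -3.50 and -1.65 on the 7 elicited arrays, so the origins did not overlap.

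The arrays lay on 2 slides, and 1 array stood apart. Slide 1 held the PBS and IL-4c arrays and Thio 1, and slide 2 held Thio 2, Thio 3 and the Thio+IL-4c arrays. Thio 1 correlated with the PBS arrays at r of 0.917 to 0.931 across genes, but with Thio 2 and Thio 3 at 0.848 to 0.865. Its Gata6 level was -2.04, within the elicited range. With slide as a block the interaction equals the one computed without Thio 1, since the resident effect then comes from slide 1 and the elicited effect from slide 2. The block is therefore given beside the genes described in most detail, and beside a count where it moved it most. The 75th percentile of the signal was 1275 to 1819 in PBS, 3059 to 3883 in IL-4c, 2294 to 3578 in Thio and 2044 to 2549 in Thio+IL-4c. Array brightness thus went up with IL-4c in resident cells and, on slide 2, down from 3481 and 3578 in elicited cells. The part of brightness in the interaction was not tested. Keeping only genes well above background on all 14 arrays left fewer genes to test. Of these, 6597 had the interaction called, 2487 higher and 4110 lower. The median interaction of the genes kept was -0.14, against -0.05 in the main fit. This count therefore has another base than the counts below. In bulk samples, fewer cells of a type and less RNA per cell cannot be told apart.

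IL-4c changed different genes, or the same genes by different amounts, in the 2 origins. The interaction was called for 6642 genes, 32.7% of those tested: 2588 had a higher IL-4c effect in elicited cells and 4054 a lower one. A difference of 2-fold or more was found for 4187 of them. With slide as a block 8157 genes were called (40.1%), 3846 higher and 4311 lower. Both fits called 6361 genes in the same direction (31.3%), and none in opposite directions. IL-4c by itself was called for 6546 genes in resident cells (32.2%) and 8007 in elicited cells (39.4%), and with the block for 8792 (43.2%) and 8558 (42.1%). Over all genes 16.9% rose and 15.3% fell in resident cells, and 16.2% rose and 23.1% fell in elicited cells. The interaction was higher for 12.7% and lower for 19.9%. Counts of list members below are to be read beside these shares. Across the 20343 genes the 2 effects correlated at Pearson's r of 0.18 and Spearman's rho of 0.06. With slide as a block these were 0.24 and 0.17. Both are descriptions over genes that share arrays and are not independent replicates.

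The calls fell into classes by their direction in each origin. Both effects were called in the same direction for 2951 genes, which are 45.1% of the resident and 36.9% of the elicited calls. Among these, 1842 had no called interaction and are named shared (942 rose, 900 fell). A further 572 had a larger effect in elicited cells (191 rose, 381 fell) and 537 a larger effect in resident cells (361 rose, 176 fell). Resident-specific genes, called in resident cells only and with the interaction called against that change, numbered 1689 (851 rose, 838 fell). The corresponding elicited-specific genes numbered 2447 (758 rose, 1689 fell). Opposite genes numbered 1096: 661 rose in resident and fell in elicited cells, and 435 did the reverse. Genes not well above background in resident cells are included, such as Ccl22 among the opposite genes. The same class and direction held in both fits for 1516 shared, 1377 resident-specific, 1808 elicited-specific and 981 opposite genes.

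**Figure D1:**
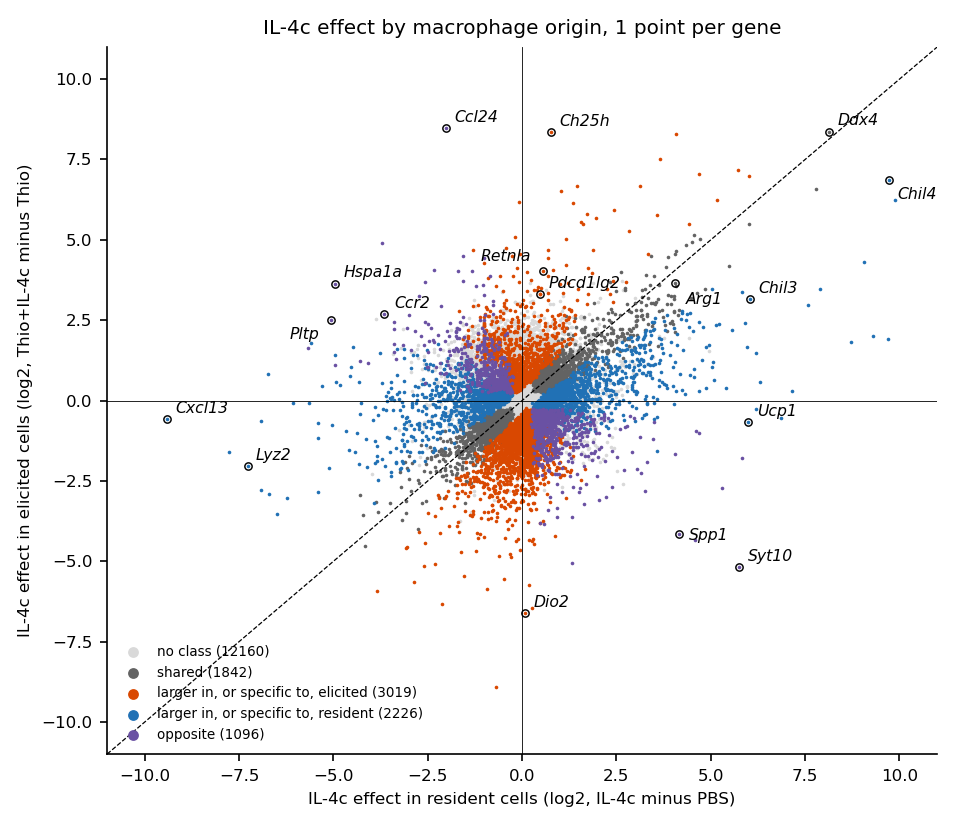
Each point is 1 of 20343 genes, with its IL-4c effect in resident cells on the horizontal axis and in elicited cells on the vertical axis, both in log2 units, coloured by response class. Arg1 and Ddx4 lie near the dashed line of equal effects, Cxcl13 and Ucp1 along the horizontal axis, Dio2 and Ch25h along the vertical axis, and Syt10 and Spp1 in the quadrant of opposite effects.

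Arg1, which encodes arginase 1, was among the shared genes. It stood at 3.28, 2.96 and 3.80 in PBS and at 7.39, 7.23, 7.51 and 7.52 in IL-4c. In elicited cells it stood at 3.71, 3.28 and 3.98 in Thio and at 7.31, 7.17, 7.45 and 7.33 in Thio+IL-4c. Untreated and IL-4c arrays did not overlap in either origin, and both origins reached about the same level. The interaction was -0.41 (SE 0.28, adjusted p = 0.295; -0.38 with slide as a block). Slc7a2, a transporter that supplies arginine, rose by 4.71 in resident and by 5.01 in elicited cells (interaction 0.30, SE 0.23). Mthfd2, a mitochondrial folate enzyme, rose by 3.86 and 4.45. The germ cell helicase gene Ddx4 ranked first in this class and rose by 8.13 and 8.37 (interaction 0.24, SE 0.41). The cytokine gene Il6 rose by 3.81 and 4.16, although its level in Thio, -4.44 to -4.26, was below that in PBS, -1.43 to -0.32. Clec4d, a pattern receptor of myeloid cells, fell by 4.17 and 4.54, and Rgs1, a regulator of G protein signalling, fell by 4.22 and 3.57. A missed threshold does not show that effects were equal: Prom1 had an interaction of 0.35 on its brightest probe and 1.54 on the other.

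Some of the best known IL-4 genes were induced in both origins, but from different starting levels. Chil3, which encodes Ym1, was at 0.79, 1.31 and 1.57 in PBS and at 4.14, 4.08 and 4.44 in Thio. With IL-4c it was at 7.12 to 7.32 in resident and 7.18 to 7.54 in elicited cells. The end levels overlapped while the starting levels did not, and the interaction was -2.86 (SE 0.25, adjusted p = 6.6e-06; -2.91 with slide as a block). Its neighbour Chil4, which encodes Ym2, rose by 9.73 in resident and by 6.85 in elicited cells (interaction -2.88, SE 0.30; -3.10 with the block). Their sequences are alike, so the 2 probes may share signal.

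Retnla, which encodes RELM alpha, showed the reverse. It was already at 6.83, 7.02 and 6.86 in PBS but at 3.54, 3.63 and 3.48 in Thio, and it reached 7.32 to 7.59 in IL-4c and 7.38 to 7.68 in Thio+IL-4c. Again only the starting levels separated the origins: the interaction was 3.47 (SE 0.15, adjusted p = 7.8e-08; 3.47 with slide as a block). Retnla ranked between 1 and 3 among all genes tested on every array of both IL-4c groups, and between 121 and 146 in PBS. No spot was marked as saturated. The highest gene level of an array ran from 7.32 to 8.67, and the lysozyme gene Lyz2 was at 8.39 to 8.61 in PBS. Whether the top of the scale limited the levels of Retnla, Chil3 or Arg1 was not tested. Arg1 ranked 2 to 4 in IL-4c and 10 to 25 in Thio+IL-4c.

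Aldh1a2, which makes retinoic acid, moved both in starting and end level. It was at 1.64 to 1.89 in PBS and 2.27 to 2.65 in IL-4c, against -0.22 to -0.03 in Thio and 4.17 to 4.39 in Thio+IL-4c. The 4 groups did not overlap. The interaction was 3.73 (SE 0.16, adjusted p = 7.8e-08; 3.72 with the block). The study pursued some of the genes described here on these same samples, namely Ccr2, Cx3cr1, Ucp1, Pdcd1lg2, Aldh1a2 and further retinoid genes, so their values are not independent evidence.

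Of 33 measured alternative activation genes 20 rose and 5 fell in resident cells (16.9% and 15.3% of all genes), and 22 rose and 5 fell in elicited cells (16.2% and 23.1%). The interaction was called higher in elicited cells for 12 and lower for 6, beside 12.7% and 19.9% of all genes tested. In the authors' deposited table these were 13 and 11, with a median interaction of -0.05 rather than 0.33. The median effect of the members was 0.97 in resident and 2.60 in elicited cells. Larger in elicited cells were the lectin gene Mgl2 (2.34 and 3.32), the cyclooxygenase gene Ptgs1 (0.47 and 3.33) and the ribonuclease genes Ear2 (1.95 and 5.67) and Rnase2a (5.71 and 7.18). No PBS array detected the E-cadherin gene Cdh1, which rose by at least 10.3-fold in resident cells and by 7.06 on the log2 scale in elicited cells. The creatine synthesis gene Gatm was larger in resident cells (5.84 and 3.39). Mrc1, the mannose receptor gene, went opposite ways: it fell from 1.55, 1.90 and 1.63 to between 0.42 and 1.07 in resident cells and rose from 4.22 to 4.52 up to 5.81 to 5.95 in elicited cells (interaction 2.50, SE 0.23). Ch25h, which makes 25-hydroxycholesterol, was at 1.55 to 1.88 in Thio+IL-4c and at -5.16 or below on all other arrays, with no PBS array and 1 of 3 Thio arrays well above background, so its size of change is not given. Il10 and Igf1 were called in neither origin, with effects between -0.37 and 0.39.

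**Figure D2:**
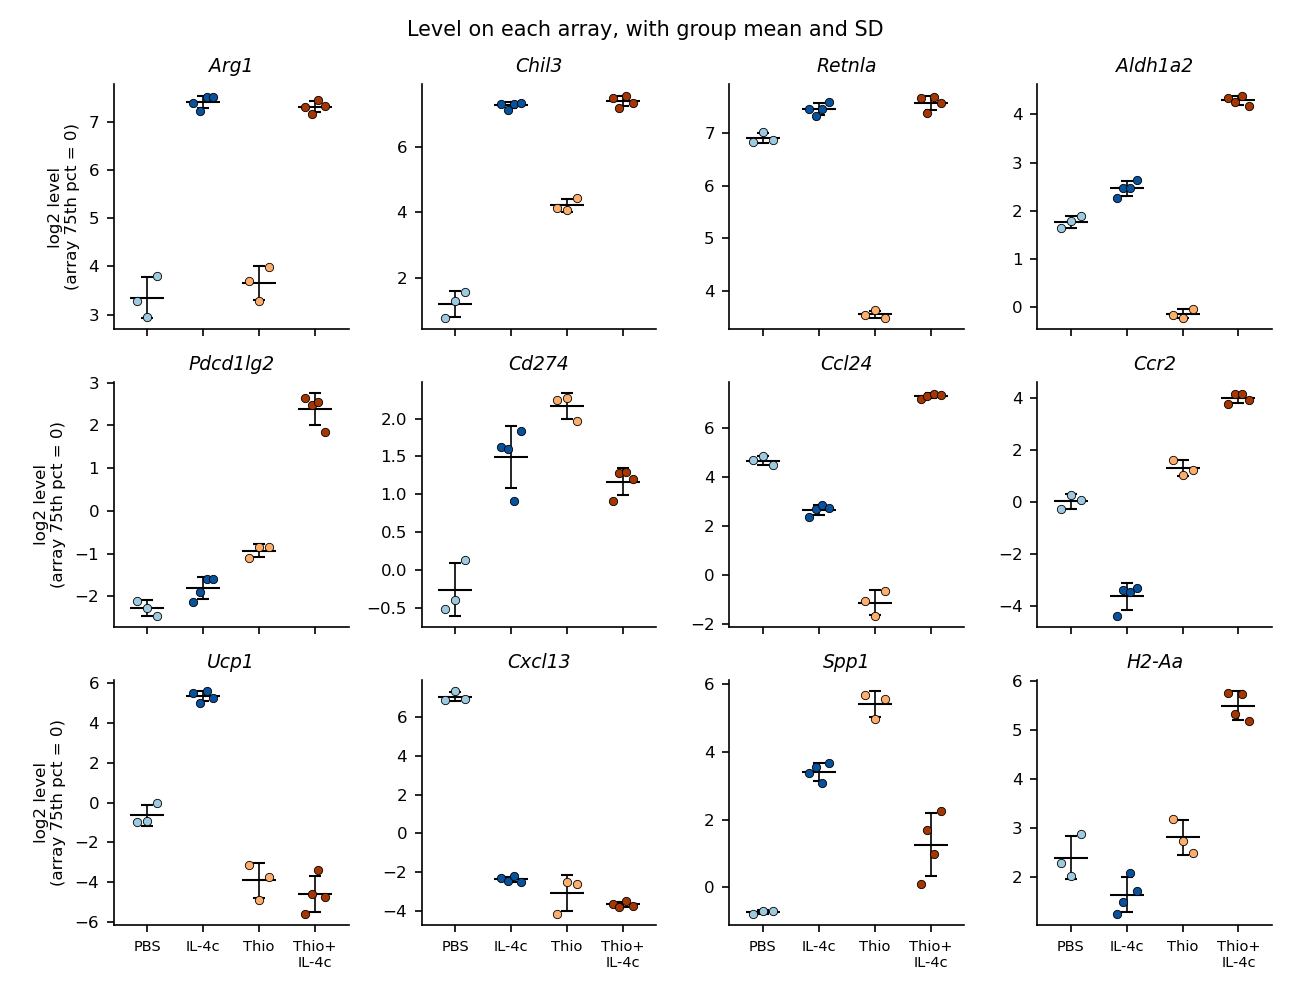
Level of 12 genes on each of the 14 arrays, in log2 units with 0 at the 75th percentile of the array. Points are arrays, with the mean and SD of each group of 3 or 4. Arg1 and Chil3 end at about the same level in both IL-4c groups, Retnla starts high in PBS, and Spp1, Ccr2, Cd274, Ccl24 and H2-Aa move in opposite directions in the 2 origins.

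Several promoters of these genes hold the letters that STAT proteins are known to recognise, and 9 stretches are shown as examples from several classes. The stretches are 5′ to 3′ on the strand of the gene, from RefSeq promoters of build GRCm38.p6 that run from 250 bases before to 50 after the start. Capitals mark TTCNNNNGAA, the spacing known for STAT6, in Retnla and Ccl17 (larger in elicited cells), Pdcd1lg2 (elicited-specific), Itgax (opposite), Serpinb7 (resident-specific) and Tfec (larger in resident cells). They mark TTCNNNGAA, the spacing of other STAT proteins, in Chil3 and Chil4 (larger in resident cells) and in a second stretch of Ccl17.
Retnla: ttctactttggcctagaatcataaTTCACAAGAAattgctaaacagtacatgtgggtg
Ccl17: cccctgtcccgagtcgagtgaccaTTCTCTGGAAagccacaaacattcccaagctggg
Pdcd1lg2: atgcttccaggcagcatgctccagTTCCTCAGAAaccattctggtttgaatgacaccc
Itgax: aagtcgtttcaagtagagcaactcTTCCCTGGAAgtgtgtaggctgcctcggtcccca
Serpinb7: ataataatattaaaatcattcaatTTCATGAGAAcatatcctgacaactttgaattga
Tfec: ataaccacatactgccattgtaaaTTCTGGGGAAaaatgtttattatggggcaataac
Ccl17, second stretch: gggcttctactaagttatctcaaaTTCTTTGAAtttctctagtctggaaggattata
Chil3: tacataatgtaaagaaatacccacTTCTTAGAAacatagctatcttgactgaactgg
Chil4: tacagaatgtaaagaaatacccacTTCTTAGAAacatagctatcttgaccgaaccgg
They lie at chr16:48842440-48842497 (plus strand, Retnla), chr8:94810275-94810332 (plus, Ccl17), chr19:29410813-29410870 (plus, Pdcd1lg2), chr7:128129399-128129456 (plus, Itgax), chr1:107422479-107422536 (plus, Serpinb7), chr6:16898608-16898665 (minus, Tfec), chr8:94810330-94810386 (plus, Ccl17, second stretch), chr3:106167704-106167760 (minus, Chil3) and chr3:106219647-106219703 (minus, Chil4). The Chil3 and Chil4 stretches share 54 of 57 bases. Both patterns read the same on the 2 strands. Over all 19736 promoter windows of 16133 genes tested, 6.18% held TTCNNNNGAA and 7.77% held TTCNNNGAA. Among the windows of genes that rose more in elicited cells 15 of 185 held the first pattern (8.11%), among the elicited-specific rises 44 of 736 (5.98%), among the resident-specific rises 53 of 846 (6.26%) and among the shared rises 61 of 910 (6.70%). Over all classes the share ran from 3.41% to 8.11%. A match is a run of letters and not a known site, and nothing follows from a missing match in a window of this length.

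Genes larger in elicited cells also included chemokine, inhibitor and feedback genes. Il4i1, an amino acid oxidase named for its induction by IL-4, was at -2.44 to -1.92 in PBS, -1.70 to -0.72 in IL-4c, -2.62 to -1.78 in Thio and 3.83 to 4.94 in Thio+IL-4c. Only the Thio+IL-4c arrays were high, and the interaction was 5.51 (SE 0.44, adjusted p = 3.9e-06; 5.71 with slide as a block). Timp1, a metalloproteinase inhibitor, rose by 1.57 in resident and 5.55 in elicited cells, and the kallikrein gene Klk8 by 1.71 and 5.79. Among the genes that fell more in elicited cells were the endocytosis gene Reps2 (-0.48 and -5.56), the hyaluronidase gene Hyal1 (-0.40 and -3.75) and Adgre1 itself (-0.27 and -1.20; interaction -0.92, SE 0.13).

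Genes larger in resident cells included Aqp3, a water and glycerol channel, which rose by 9.06 in resident and 4.30 in elicited cells (interaction -4.76, SE 0.44), and the semaphorin gene Sema3b, which rose by 5.97 and 1.68. The largest shared falls of this class were of Lyz2, which encodes lysozyme, and F13a1, a coagulation factor subunit of macrophages. Lyz2 was at 8.39, 8.41 and 8.61 in PBS and at 0.77 to 1.63 in IL-4c, against 6.46 to 7.02 in Thio and 4.31 to 4.88 in Thio+IL-4c. It ranked 1 to 3 among all genes in PBS and 4262 to 6108 in IL-4c. Its interaction was 5.23 (SE 0.33, adjusted p = 9.4e-07; 5.39 with the block). F13a1 fell by 7.77 and 1.61, with an interaction of 6.17 on its brightest probe and 3.33 on the other.

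Resident-specific rises included genes at very different levels in elicited cells. Ucp1, the uncoupling protein known from brown fat, was at -1.0, -0.91 and -0.02 in PBS and at 5.51, 5.03, 5.60 and 5.27 in IL-4c. In Thio it was at -4.90 to -3.12 and in Thio+IL-4c at -5.61 to -3.42, which overlap. The interaction was -6.68 (SE 0.71, adjusted p = 3e-05; -6.28 with slide as a block). The serpin gene Serpinb7, whose promoter stretch is shown above, rose by 6.86 in resident cells and differed by -0.54 in elicited cells, where it was well above background on 2 of 3 Thio and 2 of 4 Thio+IL-4c arrays. The kallikrein gene Klk1b11 rose by 7.14 (elicited 0.30), and its elicited arrays, at -1.36 to -0.66, lay between PBS and IL-4c. The glycosyltransferase gene Galnt6 rose by 6.19 (elicited -0.25), from -3.37 to -2.78 up to 2.86 to 3.81, while all elicited arrays were higher still, at 4.39 to 5.21.

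Among the resident-specific falls, Cxcl13, the B cell chemoattractant of peritoneal macrophages, was at 6.88, 7.32 and 6.92 in PBS and at -2.50 to -2.20 in IL-4c. It was at -4.15, -2.50 and -2.63 in Thio and at -3.77 to -3.50 in Thio+IL-4c. The fall in resident cells brought it to the level of Thio 2 and Thio 3, and the interaction was 8.84 (SE 0.45, adjusted p = 2.4e-07). With slide as a block, which leaves out the lowest array Thio 1, the elicited fall was called, the gene counted as shared and larger in resident cells, and the interaction was 8.31. The phosphatase gene Dusp6, which restrains ERK signalling, fell by 6.08 in resident cells (elicited -0.07), and the haptoglobin gene Hp fell by 5.29 (elicited 0.45).

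Elicited-specific rises included Irf4, a transcription factor of the alternative state. Irf4 was at 1.34 to 1.54 in PBS and 1.34 to 1.66 in IL-4c, which overlap, and rose from -1.28, -1.14 and -1.14 in Thio to between 1.52 and 1.92. IL-4c thus brought elicited cells to the level that resident cells held with or without it (interaction 2.82, SE 0.17, adjusted p = 6.8e-07; 2.78 with the block). Pdcd1lg2, which encodes the T cell ligand PD-L2, was at -2.46 to -2.10 in PBS and -2.13 to -1.59 in IL-4c (effect 0.47, adjusted p = 0.108). It was at -1.11, -0.84 and -0.85 in Thio and 2.65, 2.48, 2.55 and 1.84 in Thio+IL-4c. Only the last group stood high, with an interaction of 2.85 (SE 0.29, adjusted p = 2.1e-05; 2.76 with the block). Myc, which drives growth, rose by 1.84 in elicited cells (resident 0.47, adjusted p = 0.0797).

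Elicited-specific falls were led by Dio2, the enzyme that activates thyroid hormone. It was at 2.91, 2.68 and 1.95 in Thio and at -4.63 to -3.53 in Thio+IL-4c, while all 7 resident arrays were at -3.07 to -2.80. Only the Thio arrays were high, and the interaction was -6.69 (SE 0.36, adjusted p = 3.1e-07; -6.49 with the block). The serine protease gene Htra1 fell by 4.88 (resident -0.28) and the tetraspanin gene Tspan7 by 5.86 (resident -0.93). Pparg, a lipid-sensing nuclear receptor often tied to alternative activation, fell by 1.67 in elicited cells, from 3.07 to 3.76 down to 1.18 to 2.07, and differed by 0.15 in resident cells, where it was at -1.06 to -0.47.

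Opposite responses were seen for genes with large effects on both sides. Syt10, a synaptotagmin gene, was at -2.45, -1.98 and -1.53 in PBS and 3.29 to 4.04 in IL-4c, but at 3.62, 3.69 and 2.86 in Thio and -2.03 to -1.53 in Thio+IL-4c. The 2 origins exchanged levels, and the interaction was -10.95 (SE 0.38, adjusted p = 2.6e-08; -10.83 with slide as a block). Spp1, which encodes the matrix protein osteopontin, was at -0.79, -0.69 and -0.69 in PBS and 3.07 to 3.69 in IL-4c, and fell from 5.70, 4.97 and 5.57 in Thio to between 0.10 and 2.26 in Thio+IL-4c. Its effects were 4.15 and -4.15 and its interaction -8.30 (SE 0.57; -8.16 with the block). The semaphorin receptor gene Plxna2 rose by 5.30 and fell by 2.73, and the inhibitory receptor gene Cd300lf rose by 3.25 and fell by 2.83 (interactions of -6.40 and -5.60 on its other probes).

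In the reverse direction, Ccl24, an eosinophil attractant, had the largest positive interaction among the named genes. It was at 4.69, 4.85 and 4.50 in PBS and fell to between 2.39 and 2.87 in IL-4c, but it rose from -1.05, -1.69 and -0.67 in Thio to between 7.19 and 7.43 in Thio+IL-4c. The 4 groups did not overlap, and the interaction was 10.49 (SE 0.29, adjusted p = 2.8e-09; 10.53 with the block). Ccr2, the monocyte chemokine receptor gene, was at -0.28, 0.27 and 0.07 in PBS, -4.40 to -3.31 in IL-4c, 1.62, 1.04 and 1.25 in Thio and 3.78 to 4.16 in Thio+IL-4c. The fall in resident and the rise in elicited cells gave an interaction of 6.35 (SE 0.36, adjusted p = 4.9e-07; 6.52 with the block). Pltp, which transfers phospholipids between lipoproteins, fell by 5.06 and rose by 2.51. Ccnd2, which encodes cyclin D2, fell by 2.57 and rose by 3.69. Hspa1a, a heat shock gene, fell by 4.96 and rose by 3.63, and was uneven among the PBS arrays, at 0.56, 2.45 and 3.06.

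Some genes were detected in an origin only with IL-4c, where detected means well above background and the fold is a lower bound. Aqp9, a water and glycerol channel gene, lay below this detection level on all Thio arrays, and its Thio+IL-4c level was higher at least 16.8-fold. In resident cells, where it was at -3.10 to -2.62, its effect was -0.08. The gap junction gene Gja1 was at least 6.94-fold higher and the chemokine gene Ccl22 at least 6.87-fold higher in Thio+IL-4c than in Thio. In resident cells the ectonucleotidase gene Entpd3 was at least 77.2-fold higher, the water channel gene Aqp1 at least 47.1-fold higher and the actin-binding gene Avil at least 20.3-fold higher in IL-4c than in PBS, where none was well above background. Elicited cells raised the last 3 as well, by 2.98, 3.48 and 2.42. Counting any probe of a gene, 2, 3 and 1 of the 3 Thio arrays were well above background for Entpd3, Aqp1 and Avil. The Avil probe that gave its level was at -7.10 to -6.98 in Thio, below the lowest signal well above background on each Thio array. Its rise of 2.42 is thus a fitted change from background level and its size is uncertain.

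The interaction of the receptor gene itself was not called. The interaction of Il4ra was -0.19 (SE 0.28, adjusted p = 0.626; 0.77 on its other probe), with all 14 arrays between -0.53 and 0.56. Stat6 differed by -0.15 in resident cells and fell by 0.78 in elicited cells, but its 3 probes disagreed, with interactions of -0.63, 1.29 and -0.06, and the mean of its probes gave 0.20. Of 23 genes of IL-4 receptor signalling and feedback 3 had a higher and 3 a lower effect in elicited cells, beside 12.7% and 19.9% of all genes (2 and 6 in the authors' deposited table). The feedback inhibitor Cish rose by 3.12 in resident and 6.68 in elicited cells (interaction 3.56, SE 0.52). Socs2, a further inhibitor of cytokine signalling, rose by 3.44 in elicited cells only (resident 0.32; interaction 3.12, and 3.62 and 3.79 on its other probes). Socs1 rose in both, by 2.89 and 2.15, though its elicited rise was not called with slide as a block. The receptor substrate gene Irs1 rose by 1.73 and fell by 1.39 on its brightest probe. Its other probe had positive effects in both origins, 2.26 and 1.70 (interaction -0.56), so the probes disagree on an opposite response. Of 28 transcription factor genes linked to IL-4, 10 had a higher and 8 a lower effect in elicited cells (7 and 9 in the authors' deposited table). Klf4 (2.89 and 2.77) and the coactivator gene Ppargc1b (3.05 and 2.50) rose in both, Nfil3 (0.95 and 2.09) rose more in elicited cells, and Maf fell in elicited cells (-0.33 and -1.75).

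Chemokine genes separated the origins. Of 25 measured, 1 rose and 14 fell with IL-4c in resident cells, while 11 rose and 5 fell in elicited cells. The 14 falls include Ccl22 (-1.02), at -8.20 to -7.57 in PBS and -9.04 to -8.59 in IL-4c. These levels were below the lowest signal well above background on every resident array, so this change is not read as a fall in expression. The interaction was called higher in elicited cells for 14 and lower for none, beside 12.7% and 19.9% of all genes. With slide as a block it was 15 and 1. The median interaction of the members was 1.97, against -0.05 over all genes. Ccl2, Ccl7 and Ccl12, monocyte attractants that lie close together on chromosome 11, rose in elicited cells by 2.95, 4.56 and 3.51 and differed in resident cells by 0.09, -0.06 and 0.49. Ccl3 and Ccl4, which lie elsewhere on the same chromosome, fell in both, by 6.92 and 2.79 and by 2.89 and 1.14. Ccl17, a ligand of the T cell receptor CCR4, was at -4.91 to -4.33 in PBS, -3.74 to -3.24 in IL-4c, -4.70, -3.49 and -3.39 in Thio and 0.23 to 1.70 in Thio+IL-4c (interaction 3.88, SE 0.55). Cxcl12, which retains leukocytes, fell by 4.09 in resident and rose by 1.17 in elicited cells. Cxcl16 and Pf4 fell alike in both (-0.95 and -1.22; -2.18 and -2.18).

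MHC class II genes, which present antigen to helper T cells, also went apart. Of 14 measured, 1 rose and 6 fell in resident cells, and 10 rose and none fell in elicited cells. The interaction was higher in elicited cells for 11 and lower for 1, in both fits. Of all genes 12.7% and 19.9% were called so, and 18.9% and 21.2% with slide as a block. H2-Aa, a class II chain, was at 2.28, 2.01 and 2.87 in PBS, 1.24 to 2.08 in IL-4c, 3.18, 2.73 and 2.49 in Thio and 5.17 to 5.75 in Thio+IL-4c. Only the Thio+IL-4c arrays were raised, and the interaction was 3.46 (SE 0.37, adjusted p = 3.4e-05; 3.65 with the block). The peptide loading genes H2-DMb2 (-2.33 and 4.06) and H2-Oa (-2.41 and 2.27) were opposite. The invariant chain gene Cd74 rose by 1.97 and the class II activator gene Ciita by 1.12 in elicited cells, and neither passed in resident cells (-0.65 and -0.25), where Cd74 was called with slide as a block.

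Markers of other cells that carry class II moved with part of this. Of 13 B cell markers 7 fell and none rose in resident cells, and 2 rose and 4 fell in elicited cells. Beside 12.7% and 19.9% of all genes, the interaction was higher for 6 and lower for 2 of these markers. Their summed linear level was 12.1 to 21.0 in PBS, 4.07 to 4.66 in IL-4c, 6.77 to 7.98 in Thio and 4.14 to 4.41 in Thio+IL-4c, in units of the 75th percentile. In elicited cells the sum thus went down while class II genes rose. Of 12 dendritic cell markers 5 had a higher and none a lower interaction. Their sum was 105 to 136 in PBS, 65.3 to 70.8 in IL-4c, 87.5 to 129 in Thio and 116 to 132 in Thio+IL-4c, and no marker of either list was below background on all arrays. The part of these cells in the class II result was not tested.

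Of 19 ligands that T cells read, 6 had a higher and 4 a lower interaction, beside 12.7% and 19.9% of all genes. With slide as a block these were 8 and 3. Cd274, which encodes PD-L1 and lies beside Pdcd1lg2, rose by 1.75 in resident cells, from -0.52, -0.40 and 0.14 to between 0.91 and 1.83, and fell by 0.99 in elicited cells, from 1.97 to 2.27 down to 0.91 to 1.29. Its interaction was -2.75 (SE 0.32, adjusted p = 5.3e-05; -2.70 with the block), while that of Pdcd1lg2 was positive. The costimulatory ligand genes Icosl (-1.55 and 1.67), Tnfsf9 (-0.54 and 1.36) and Cd40 (-0.81 and 0.54) fell in resident and rose in elicited cells, and Cd86 fell in resident cells only (-1.68 and -0.03).

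**Figure D3:**
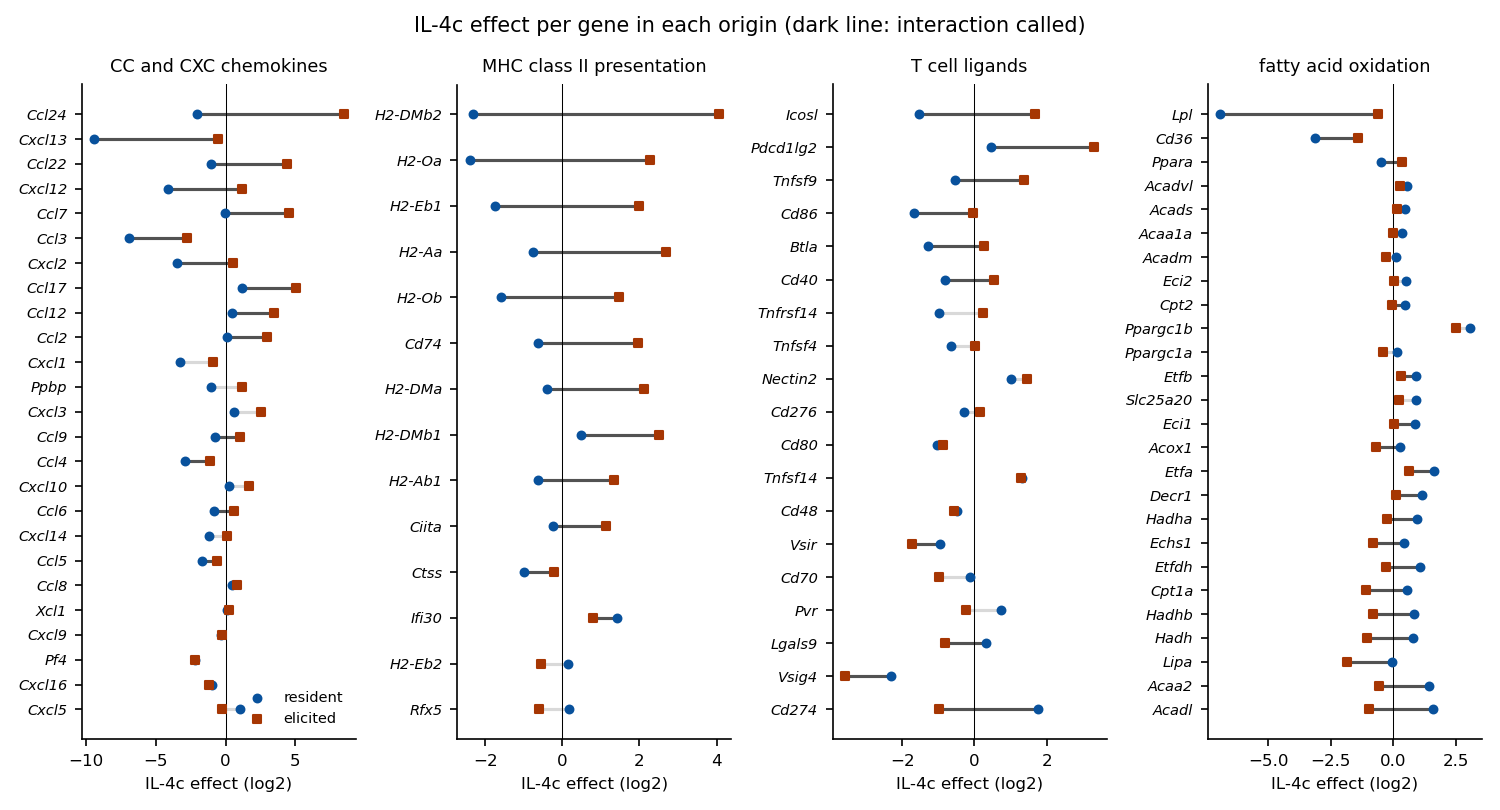
IL-4c effect in log2 units of each measured gene of 4 lists, with resident cells as circles and elicited cells as squares. A dark line joins the 2 effects where the interaction was called, as for 14 of 25 chemokine genes, 12 of 14 class II genes, 10 of 19 T cell ligands and 18 of 26 fatty acid oxidation genes.

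Transcripts of cell division rose in both origins. Of 35 genes of DNA replication 33 rose in resident and 27 in elicited cells, and of 36 mitosis genes 35 and 31 rose. Mki67, the marker of dividing cells, was at 1.99, 1.04 and 1.69 in PBS and 5.00 to 5.24 in IL-4c, and at 0.10, -0.23 and -0.83 in Thio and 2.63 to 2.90 in Thio+IL-4c. It rose by 3.54 and 3.08, so the level stayed lower in elicited cells but the effects did not differ beyond their spread (interaction -0.46, SE 0.33, adjusted p = 0.315). The interaction was lower in elicited cells for 15 replication and 15 mitosis genes and higher for 1 and 0, while 16 and 19 genes were shared with no interaction called. Of all genes 19.9% had a lower and 12.7% a higher interaction. The mitosis count was 22 with slide as a block, 24 with normexp background correction and 32 in the authors' deposited table, where the replication count was 26. The medians were 2.21 in resident and 1.18 in elicited cells for replication and 3.41 and 2.08 for mitosis. Mcm5, a subunit of the replicative helicase, rose by 2.62 and 2.01. Lig1, the ligase that joins Okazaki fragments, rose by 1.88 and fell by 1.30, and the kinesin gene Kif23 rose in resident cells only (3.05 and 0.26).

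Ribosome biogenesis genes ran the other way. Of 32 measured, 16 rose in resident and 29 in elicited cells. Beside 12.7% and 19.9% of all genes, the interaction was higher in elicited cells for 23 and lower for none. This count moved with the scaling: 11 were higher with the arrays scaled to their median and 8 in the authors' deposited table. These settings shifted the median interaction of all genes from -0.05 to -0.25 and -0.20. Nop58, which builds small nucleolar ribonucleoproteins, was at 1.58 to 1.84 in PBS, 2.60 to 3.01 in IL-4c, 0.60 to 0.83 in Thio and 2.96 to 3.18 in Thio+IL-4c (interaction 1.24, SE 0.18). The nucleolar genes Fbl (0.12 and 1.59) and Tsr1 (-0.07 and 1.70) were elicited-specific. Of 28 genes of protein folding and secretion, 19 rose in resident and 21 in elicited cells. There were 7 higher and 5 lower interactions, beside 12.7% and 19.9% of all genes. The balance depends on the scaling, with 3 higher and 5 lower when arrays were scaled to their median and 3 and 13 in the authors' deposited table.

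Lists of sterol and energy metabolism had more lower than higher interactions. Among all genes 19.9% were lower and 12.7% higher. Cholesterol synthesis had 26 measured genes, of which 17 rose with no fall in resident cells, while 2 rose and 8 fell in elicited cells. The interaction was lower in elicited cells for 18 and higher for 1 (18 and 2 with slide as a block). Srebf2, the sterol-sensing transcription factor, rose by 0.93 and fell by 2.29 (interaction -3.22, and -0.71 on its other probe). The exception, Acat2, rose by 1.37 in elicited cells and differed by -0.75 in resident cells.

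Fatty acid oxidation, with 26 measured genes, had 17 that rose and 3 that fell in resident cells, against 2 and 10 in elicited cells, with 15 lower and 3 higher interactions. For each list of this paragraph, 19.9% lower and 12.7% higher over all genes stand beside the counts. The dehydrogenase gene Acadl was opposite (1.60 and -0.98), as was Hadhb of the trifunctional protein (0.84 and -0.83). Lpl, which releases fatty acids from lipoproteins, fell by 6.92 and 0.63, the second of which was not called with slide as a block. Of 29 oxidative phosphorylation genes 26 rose in resident and 17 in elicited cells, and 17 had a lower and 1 a higher interaction. The succinate dehydrogenase genes Sdhc (1.06 and 0.12) and Sdhd (1.28 and -0.12) were resident-specific. Of 22 glycolysis genes 5 had a higher and 8 a lower interaction, against 3 and 11 with quantile normalization and 3 and 15 in the authors' deposited table. The glucose transporter gene Slc2a1 rose in resident cells only (2.58 and -0.10) and the hexokinase gene Hk2 in elicited cells only (0.15 and 1.88).

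Lysosomal genes fell in elicited cells. Of 31 measured, 25 fell and none rose there, while 9 rose and 13 fell in resident cells, and the interaction was lower in elicited cells for 19 and higher for 3 in both fits. Among all genes 23.1% fell in elicited cells, and 19.9% had a lower and 12.7% a higher interaction. Ctsa, which encodes cathepsin A, was at 4.30 to 4.89 in PBS, 6.32 to 6.70 in IL-4c, 6.85 to 7.28 in Thio and 5.12 to 5.63 in Thio+IL-4c, with an interaction of -3.45 (SE 0.26, adjusted p = 2.7e-06; -1.52 on its other probe). The proton pump gene Atp6v1a (1.03 and -1.64) was opposite too. Cd63 fell more in resident cells (-4.13 and -1.18).

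Among 29 scavenger and phagocytic receptors 17 fell and 4 rose in resident cells, 18 fell and 4 rose in elicited cells, and 10 had a higher and 13 a lower interaction. Among all genes 15.3% fell in resident and 23.1% in elicited cells. The counts of higher and lower interactions in this paragraph stand beside 12.7% and 19.9% of all genes. The Fc receptor gene Fcgr1 (-6.70 and -2.92) fell more in resident cells. The integrin gene Itgb5, not well above background in IL-4c, was at least 24.7-fold lower there than in PBS and fell by 3.54 in elicited cells. In contrast, the bridging genes Gas6 (-1.69 and -4.09) and Mfge8 (-1.69 and -3.79) fell more in elicited cells. Olr1, a receptor for oxidised lipoprotein, fell by 1.56 and rose by 4.51. The clearance receptor gene Timd4 fell by 1.53 and rose in elicited cells, although this rise, from -2.98, -1.12 and -1.02 to between -0.68 and -0.51, was 0.47 without Thio 1, and the gene then left the opposite class. Of 25 complement and coagulation genes 10 had a higher and 5 a lower interaction (8 each with quantile normalization).

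Of 25 genes of the type I interferon response 5 rose and 4 fell in resident cells, 1 rose and 10 fell in elicited cells, and 13 had a lower and 1 a higher interaction. With slide as a block the lower count was 9. Oasl1 rose by 4.23 in resident cells (elicited 0.33), and Rsad2, an antiviral enzyme, fell by 2.31 in elicited cells (resident 1.05, not called). The PBS arrays were uneven for some of these genes, which limits their resident effects. They ran from -0.95 to 1.55 for Oasl1, from -1.82 to 0.32 for Rsad2 and from 0.39 to 2.50 for Irf7. As above, the counts in this paragraph stand beside 12.7% of all genes higher and 19.9% lower. Among 27 inflammatory genes 6 were higher and 6 lower: Cd14 fell in resident cells only (-2.80 and -0.08) and Il1a in elicited cells only (1.20, not called, and -2.19). Of 31 matrix and repair genes 7 were higher and 4 lower (6 and 7 with quantile normalization, 10 and 10 in the authors' deposited table), among them Tgfbi (-3.41 and 2.45) and the growth factor gene Hbegf (0.02 and 3.14). Of 27 retinoid genes 5 were higher and 3 lower, and 10 and 3 with slide as a block. The retinol carrier gene Rbp4 rose by 3.82 in elicited cells and was not well above background on any resident array, and the receptor gene Rarb rose in elicited cells (0.27 and 1.93).

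**Figure D4:**
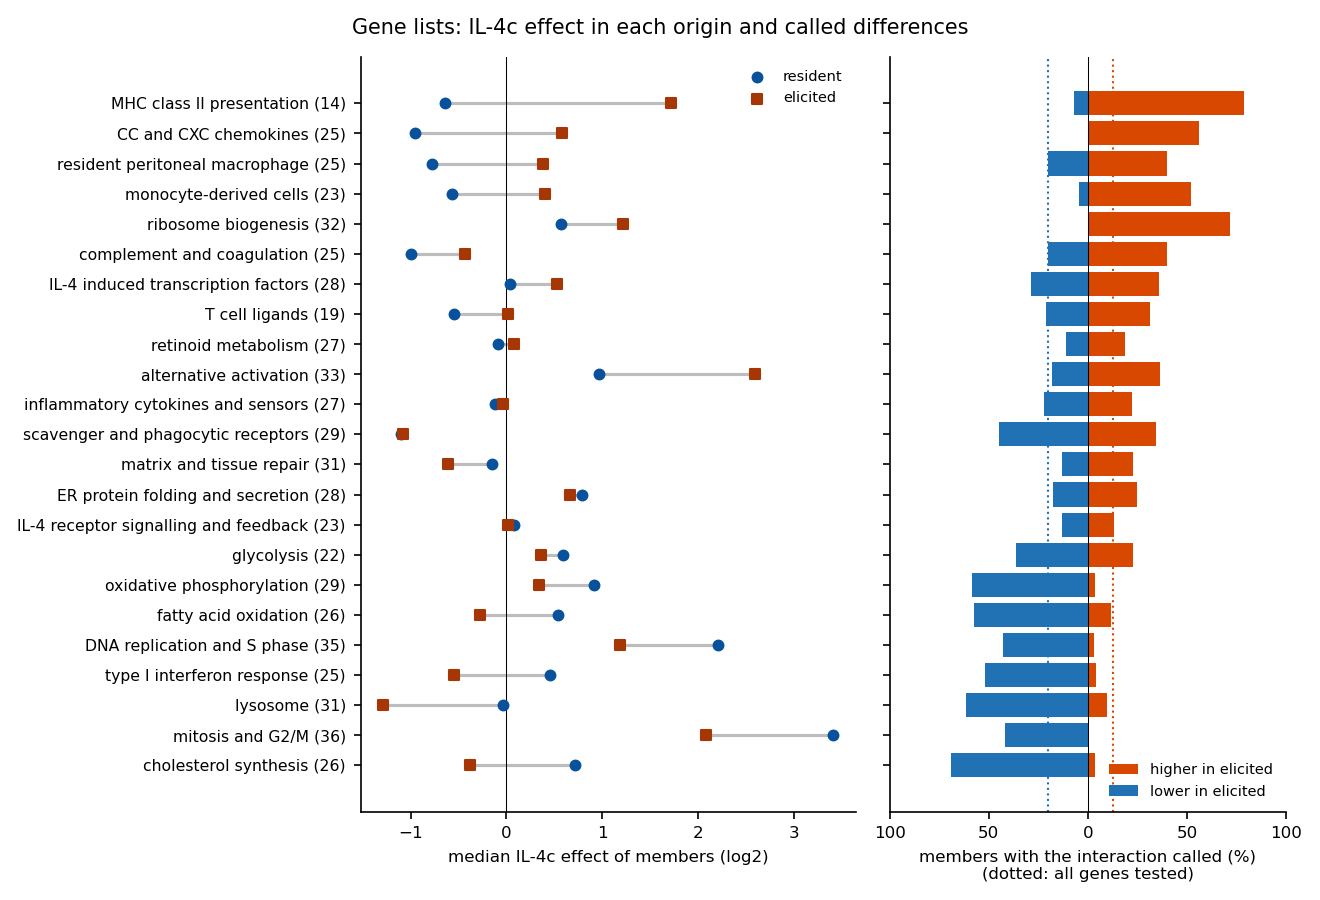
Left, median IL-4c effect in log2 units of the measured members of 23 lists in resident (circles) and elicited cells (squares), with the number of members in brackets. Right, the percent of members with the interaction called higher or lower in elicited cells, with dotted lines at 12.7% and 19.9% for all genes. Class II and chemokine genes lie at the higher end and cholesterol synthesis at the lower end.

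The marker genes of each origin were themselves changed by IL-4c. Of 25 resident macrophage markers 10 fell and 1 rose in resident cells, 9 rose and 8 fell in elicited cells, and 10 had a higher and 5 a lower interaction. Gata6 did not pass in either (0.05 and 0.70; interaction 0.64, SE 0.52, adjusted p = 0.364). Alox15, the lipoxygenase of resident cells, was at 7.05 to 7.25 in PBS and 5.71 to 6.00 in IL-4c, and rose from -5.21, -1.45 and -2.05 in Thio to between 1.64 and 1.99. Thio 1 was the lowest array, and without it the interaction was 4.85 rather than 6.01. Of 23 markers of monocyte-derived cells 9 fell and 4 rose in resident cells, 8 rose and none fell in elicited cells, and 12 had a higher and 1 a lower interaction. Both marker lists stand beside 12.7% higher and 19.9% lower interactions over all genes. Plac8 was opposite (-2.85 and 2.16; 1.31 on its other probe). Cx3cr1 had an interaction of 0.22 (SE 0.27, adjusted p = 0.556), which was 0.50 (adjusted p = 0.0376) with slide as a block and 1.69 on its other probe. All 14 arrays were between -1.19 and 0.58.

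Cells other than macrophages that might carry the sort markers were followed by marker lists. The summed level of 10 eosinophil markers was 35.8 to 39.1 in PBS, 41.1 to 46.7 in IL-4c, 4.27 to 5.24 in Thio and 63.6 to 90.6 in Thio+IL-4c. Of the 10 markers 2 had a higher and 1 a lower interaction (4 and 1 with slide as a block). Their median effect was 0.19 in resident and 0.11 in elicited cells. In Thio+IL-4c most of the sum was the ribonuclease gene Ear1, which macrophages also express. Ear1 was at -2.25 to -1.46 in PBS and -1.04 to -0.19 in IL-4c. In elicited cells it was at -0.68, -0.22 and -0.62 in Thio and 5.79 to 6.39 in Thio+IL-4c (interaction 5.21, SE 0.36). The ribonuclease gene Ear6 rose in elicited cells too (interaction 1.46). The granule gene Epx was at -5.32 to -4.26 in Thio and at -3.76 to -3.50 in Thio+IL-4c, which do not overlap, although the effect of 1.25 was not called. The granule gene Prg2 differed by -0.65 and was not called, and Siglecf fell by 0.53. The part of eosinophils was not tested. Interactions were higher and lower for 3 and 2 of 19 T and NK cell, 6 and 1 of 14 neutrophil, 2 and 2 of 10 mast cell and 2 and 5 of 15 mesothelial and stromal markers. All counts of higher and lower interactions in this paragraph stand beside 12.7% and 19.9% of all genes. Those with slide as a block stand beside 18.9% and 21.2%. With slide as a block the T and NK cell counts were 7 and 2, and their falls in resident cells went from 4 to 7. Handling stress can be read from immediate early and heat shock genes, of which 9 of 17 were higher and 1 lower. Among them Egr1, an early growth response factor, rose by 1.79 in elicited cells and differed by -0.88 in resident cells. Their part in the other results was not tested.

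Of the 6642 genes called, 95.8% were called with slide as a block, and the share of higher calls went from 39.0% to 47.2%. That share was 29.1% with the arrays scaled to their median and 50.6% with normexp background correction, which moved the median interaction of all genes to -0.25 and 0.09, so the balance of higher against lower calls depends on the scaling. The gap between origins was smaller with IL-4c than without it for 2693 of the 6642 genes and larger for 3949, beside 35.2% smaller over all genes. The IL-4c and Thio+IL-4c arrays shared no slide, so for that gap origin and slide cannot be told apart.

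**Figure D5:**
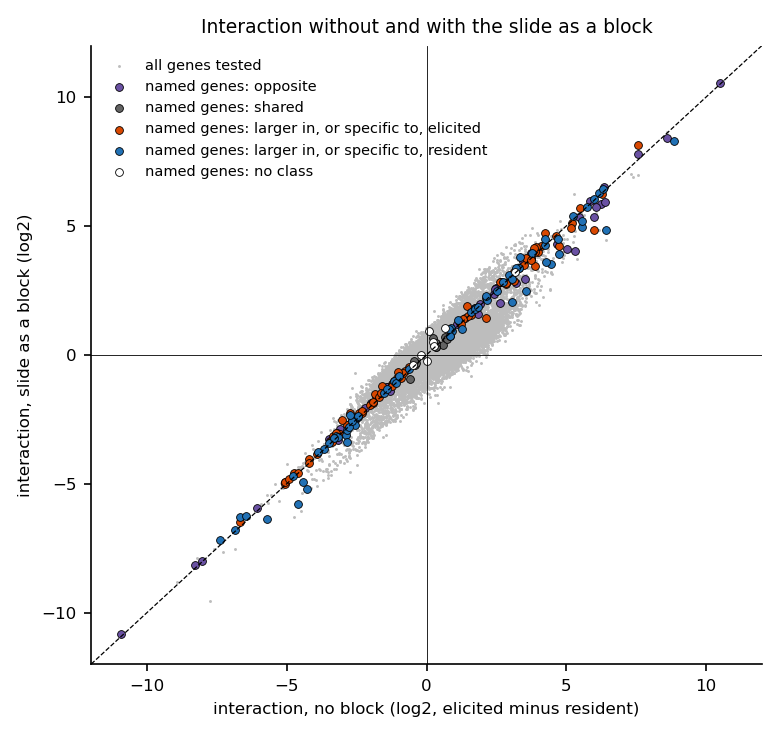
Interaction of each gene without (horizontal) and with (vertical) slide as a block, both in log2 units, with all genes tested as grey points and the named genes coloured by class. The named genes with large interactions lie along the dashed line of equal values. Many of them were named because their class or call held with the block.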

How the data were processed

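The authors deposited scanner files of 14 Agilent 1-colour arrays, whose values are spot intensities, and a table of log2 values. Per the file headers the intensities came from Agilent Feature Extraction 11.0.1.1 as processed signal, background-subtracted by that software; the submitters' processing notes give version 11.5 and limma. Control spots and outlier-marked spots were left out. Of 55681 probes 27235 had 1 symbol through accessions in RefSeq's GRCm38.p6 gene table, 28446 had none and none had several. Levels are log2 intensity minus the 75th percentile of the array. Probes well above background on fewer than 3 arrays were dropped, and the brightest probe stood for a gene, since probes can disagree. The number of arrays limits precision.

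Groups came from the treatment labels. One limma 3.58.1 fit (R 4.3.3; lmFit, contrasts.fit, eBayes) over 14 arrays gave both IL-4c effects and the interaction, and was tested on simulated data. Named genes were the first 5 per class and direction that kept their class with slide as a block, up to 3 genes per origin detected only with IL-4c, 22 index genes, and up to 3 members per list and direction. H2-Aa, Cd74, Epx, Prg2, Mcm5, Nop58 and the other list members given only with their effects were chosen after their values were seen. Bounds set the bright mean against the lowest signal well above background on the dim arrays. Members and lists were chosen with earlier results of these data known. Alternatives were block, scaling, background, filter, probe, weights and left-out arrays. The planned background alternative needed the mean signal, which was not used here, so normexp (offset 50) ran on the median signal, chosen after seeing the files. One list member is not reported here.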

Additional observations from a re-analysis of the deposited data

Results flagged for a closer look

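In 19 of 419 groups of 4 arrays examined, 1 array stood apart from the other 3 by more than the Dixon limit; chance alone does so in about 1 in 20 groups. The values are the gap of that array over the range of its group. In Thio+IL-4c the gap was 0.865 for Klk8, 0.95 for Klk1b11, 0.834 for Spink2, 0.855 for Upb1, 0.886 for Atp6v0d2, 0.897 for Tnfsf9, 0.887 for Kif23, 0.889 for Cd59a and 0.868 for Cdh5. In IL-4c it was 0.885 for Hspa1a, 0.846 for Ccr2, 0.905 for Rdh11, 0.935 for Cd163, 0.955 for Thbd, 0.834 for Irf1, 0.892 for Wt1, 0.896 for Ms4a1, 0.952 for Dcn and 0.831 for Egr1. For 10 opposite genes the effects of the 2 origins differed by the interaction term of the limma fit. It was -10.9 for Syt10, -8.3 for Spp1, -6.08 for Cd300lf, -8.03 for Plxna2 and -5.06 for Sel1l3. It was 8.59 for Hspa1a, 5.97 for Upb1, 6.35 for Ccr2, 6.25 for Ccnd2 and 7.57 for Pltp.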

How the results depend on the processing

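Of 177 comparisons of a gene count with its value under another setting, 174 stayed within 1.5 times. The exceptions were the resident-specific genes, 2997 in the authors' deposited table, and the opposite genes, 1740 in that table and 1932 with array weights; the cause was not tested. Leaving out each array in turn gave 5728 to 8154 interaction calls, 5535 to 8792 resident calls and 6943 to 8991 elicited calls. It gave 2523 to 3564 genes called in the same direction in both origins, 1397 to 2340 resident-specific, 2081 to 3095 elicited-specific and 877 to 1529 opposite genes. Among 210 named genes 183 kept direction and call under the 25 settings that could be run for them. Many were named because their class or call held with slide as a block, so their steadiness under that setting follows in part from the choice. The interaction of Stat6 turned to 0.20 with the mean of its probes, which disagree. Same-numbered arrays of different groups deviated together at r of -0.446 to 0.368, and differently numbered arrays at -0.416 to 0.429. Replicate numbers thus gave no sign of a pairing, but these ranges cannot show that the samples were unpaired. With the replicate number as a block 5840 interactions, 5792 resident and 6975 elicited effects were called. Dim probes limit the low levels, and fitted changes of genes near background depend on it.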
